A study of Mus musculus with 33 samples.

Results

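Heterotrimeric G proteins carry the signal of metabotropic receptors into the cell, and regulators of G protein signalling (RGS proteins) end it. The genes described here are those whose platform symbol names a G protein alpha, beta or gamma subunit (Gna, Gnb and Gng) or an RGS protein. They were found by a pattern on the gene symbol, with Rgs5 left out by the rule, and 48 of the 14857 genes with a single symbol matched. Each of the 48 had 1 probe set. They comprised 14 alpha subunit genes, 5 beta subunit genes, 8 gamma subunit genes and 18 RGS genes. The other 3, Gnb1l, Rgs7bp and Rgs9bp, matched by name only and encode neither a subunit nor an RGS domain regulator. A further 3 probe sets, for Gng5 and Gng10, carry several symbols in the annotation and were not counted.

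The tissue was the MNTB, the medial nucleus of the trapezoid body, whose glycinergic neurons relay sound in the brainstem and are each driven by a very large excitatory terminal called the calyx of Held that grows after birth. RNA was measured on expression arrays from wild-type FVB mice (the strain tag reads FVN) at postnatal day (P) 0, 1, 2, 3, 4, 6 and 14, with no treatment. P4 and P14 had 4 mice each and the other ages 5 each, and each array held a single mouse. The nucleus was cut out of live slices with a needle, so each sample is tissue enriched for MNTB cells and holds glia, vessels and axon terminals as well. The questions were which of these genes changed over the first week, P6 against P0, and over the second week, P14 against P6.

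In the resting G protein an alpha subunit holds GDP and is bound to a beta-gamma dimer. An active receptor makes the alpha subunit exchange GDP for GTP, after which alpha and beta-gamma act on separate targets. The alpha subunit fixes the pathway: Gs and Golf stimulate adenylyl cyclase, Gi, Go and Gz inhibit it, and Gq and G11 activate phospholipase C beta. Beta-gamma dimers open GIRK potassium channels and inhibit presynaptic calcium channels. RGS proteins speed GTP hydrolysis by the alpha subunit and so shorten the response. At the calyx of Held, presynaptic metabotropic receptors reduce transmitter release through this route.

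The stretches of 250 bases before the annotated start of transcription are shown for the 2 largest rises (Gng8 and Rgs4) and the 2 largest falls (Gng2 and Rgs9) between P0 and P14 among the genes described in full that have a single start in the RefSeq table. The sequences come from RefSeq on the build GRCm38.p6, are written 5′ to 3′ on the strand of the gene, and have 3 searched motifs in capitals. These were the GC box (GGGCGG), the CCAAT box (CCAAT) and the TATA box (TATAAA), each searched on both strands.
Gng8 (chr7:16891536-16891785, plus strand): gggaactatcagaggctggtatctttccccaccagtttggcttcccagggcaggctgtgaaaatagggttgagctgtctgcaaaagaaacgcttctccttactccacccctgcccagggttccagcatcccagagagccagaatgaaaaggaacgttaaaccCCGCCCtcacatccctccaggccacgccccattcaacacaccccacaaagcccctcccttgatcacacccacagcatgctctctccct
Rgs4 (chr1:169747643-169747892, minus strand): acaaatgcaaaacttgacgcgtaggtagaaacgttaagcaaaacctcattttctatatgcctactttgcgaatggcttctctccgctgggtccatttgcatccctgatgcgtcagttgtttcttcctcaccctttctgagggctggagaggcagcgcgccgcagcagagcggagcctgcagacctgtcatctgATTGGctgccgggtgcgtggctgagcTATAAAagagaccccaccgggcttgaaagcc
Gng2 (chr14:19976694-19976943, minus strand): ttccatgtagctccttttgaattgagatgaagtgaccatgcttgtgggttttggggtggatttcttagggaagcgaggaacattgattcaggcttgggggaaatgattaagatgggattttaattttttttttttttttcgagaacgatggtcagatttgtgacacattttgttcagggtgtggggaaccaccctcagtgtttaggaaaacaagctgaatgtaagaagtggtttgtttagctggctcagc
Rgs9 (chr11:109298182-109298431, minus strand): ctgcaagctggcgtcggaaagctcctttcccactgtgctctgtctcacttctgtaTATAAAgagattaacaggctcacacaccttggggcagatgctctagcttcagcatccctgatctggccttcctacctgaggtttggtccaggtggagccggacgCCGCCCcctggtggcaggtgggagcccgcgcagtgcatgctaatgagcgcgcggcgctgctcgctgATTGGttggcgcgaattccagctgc
The Gng8 window held a GC box on the opposite strand, 83 bases before the start. Rgs4 had a TATA box 26 bases and a CCAAT box, on the opposite strand, 53 bases before its start. Rgs9 had a GC box 86 bases and a CCAAT box 21 bases before its start, both on the opposite strand, and a TATA box at 190 bases. The Gng2 window held none of the 3. Of all 32851 windows in the table, 32.7% held a GC box, 33.8% a CCAAT box and 12.4% a TATA box. A window was listed for 35 of the 48 genes, of which 9 had several, up to 4. In at least 1 window, 20 of the 35 genes had a GC box, 11 a CCAAT box and 5 a TATA box. Counted the same way, 35.4% of all 27025 genes in the table had a GC box, 37.5% a CCAAT box and 14.3% a TATA box. The cAMP response element (TGACGTCA), which 1.55% of all windows and 1.77% of all genes hold, was in the windows of 0 of the 35. These are matches of letters and were not tested against the changes with age.

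The values are log2 expression on the scale deposited by the authors, and the median of an array averaged between 4.94 and 5.07 at the 7 ages. Levels are not comparable between genes, and changes of probe sets near or under the array median are compressed. Mice of the same age correlated between 0.967 and 0.990 over all probe sets. The P6 mouse of litter 4 had the lowest quality weight (0.271, against up to 2.15), and results that rest on it are given without it as well. Its array median of 4.83 was shared by the P2 mouse of litter 4. The P2 and P1 mice of litter 4 had the next lowest weights (0.432 and 0.45). At P6 marker genes of the nucleus were present: Calb1, Pvalb and Slc6a5 averaged 9.99, 10.41 and 10.86. Calb1 was 4.76 at P0, under the mean array median of 4.95. Of 9 MNTB and glycinergic genes, 6 rose and 1 fell between P6 and P0, and 7 rose and 1 fell between P14 and P6. The falls were those of En1 (4.785 at P6, against 5.301 at P0) and Kcnc1 (5.55 at P14, against 6.714 at P6). Marker genes of other cell types moved with age. The summed linear level of 11 myelin and oligodendrocyte genes ran over 216 to 299 at P0, 2500 to 3770 at P6 and 15100 to 16400 at P14. Of these 11 genes 10 rose between P6 and P0 and 11 between P14 and P6. The sum of 10 immature neuron genes ran over 12000 to 15500, 6110 to 8770 and 2850 to 4220 at the same ages, and 9 of the 10 fell in each week. For 9 astrocyte genes it was 2400 to 3280, 3700 to 4780 and 7220 to 9160, for 10 microglia genes 309 to 543, 744 to 922 and 1520 to 2050, and for 10 endothelial genes 347 to 528, 392 to 549 and 797 to 1100. For 9 MNTB and glycinergic genes it was 1420 to 1800, 3930 to 5450 and 7480 to 9600. In the second week 6 of 9 astrocyte, 9 of 10 microglia, 7 of 10 endothelial and 7 of 9 MNTB and glycinergic genes rose. The astrocyte gene Aldh1l1 fell (6.395 at P14, against 6.867 at P6). For 8 oligodendrocyte precursor genes the sum was 303 to 408 at P0, 916 to 1430 at P6 and 1410 to 1540 at P14. In the second week 4 of them rose and 1 fell. For 9 pericyte and smooth muscle genes it was 239 to 272, 241 to 265 and 378 to 483, and 5 rose in that week. Of 3 serotonergic genes 1, Ddc, rose in each week. The 5 cholinergic markers lay under the array median at P0, P6 and P14. The part of these shifts in the changes below was not tested, and fewer cells of a type cannot be told apart from less RNA per cell.

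Across the 7 ages 24 of the 48 genes (50%) differed in limma's moderated F test at an adjusted p under 0.05, against 28.5% of all 16686 probe sets. The 24 comprised 8 of 8 gamma subunit genes, 9 of 18 RGS genes, 5 of 14 alpha subunit genes and 2 of 5 beta subunit genes. The F calls of Gng7, Gng13 and Gnb1 lay near the threshold, with limma adjusted p of 0.0447, 0.0409 and 0.034. With 1 mouse left out the count of F calls ran from 20 to 27. The median span of the age means, highest minus lowest, was 1.64 log2 for the gamma subunit genes, 0.45 for the RGS genes, 0.49 for the beta and 0.39 for the alpha subunit genes, and 0.40 for all probe sets. Of the 24 genes, 10 were highest at P14, 7 at P0 and 7 between. A span of at least 1 log2 was reached by 14 of them: 7 gamma subunit genes, 5 RGS genes, Gna12 and Gnb4. These counts by age and by span were not made over all probe sets.

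Between P6 and P0, 5 of the 48 genes (10.4%) rose, against 6.42% of all probe sets, and 8 (16.7%) fell, against 7.95%. The median change was -0.02 log2 over the 48 genes and -0.01 over all probe sets. Rgs4, Gng8, Gng12, Gnb4 and Rgs7bp rose, and Gng2, Gng4, Gnaq, Gnaz, Gna11, Gnb1, Gnal and Rgs12 fell. The count of falls was 5 without P6 litter 3 or without P6 litter 4, when Gna11, Gnb1 and Gnal lost their calls, and 7 genes then rose without P6 litter 4. Between P14 and P6, 7 genes (14.6%) rose, against 15.7% of all probe sets, and 5 (10.4%) fell, against 5.14%. Gng8, Gng11, Gna12, Rgs6, Gnb4, Gng12 and Rgs3 rose, and Rgs8, Gng2, Rgs17, Gng4 and Rgs9 fell. The median change was 0.00 log2 over the 48 genes and 0.05 over all probe sets. This split moved with the scaling: 5 rose and 11 fell after quantile normalization, and 4 rose and 9 fell when each array was centred on its median, which moved the median of all probe sets to -0.06. The falls added by quantile normalization were Gnai3, Gnal, Gnb1, Gng3, Rgs2 and Rgs7, and those added by centring were Gnal, Gng3, Rgs7 and Gnb1l. The rises of Gnb4 and Gng12 were lost under both, and that of Rgs3 under centring. With array quality weights 8 genes fell between P14 and P6, with Gnal, Gng3 and Rgs7 added, and 8 rose between P6 and P0, with Gng7, Rgs16 and Rgs8 added. Among the falls between P6 and P0 these weights lost Gna11, Gnal and Gnb1 (limma adjusted p of 0.0515 to 0.0645) and added Rgs11 (0.0456). The comparisons share the P6 mice, so a P6 value that is off moves both in opposite directions.

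**Figure D1:**
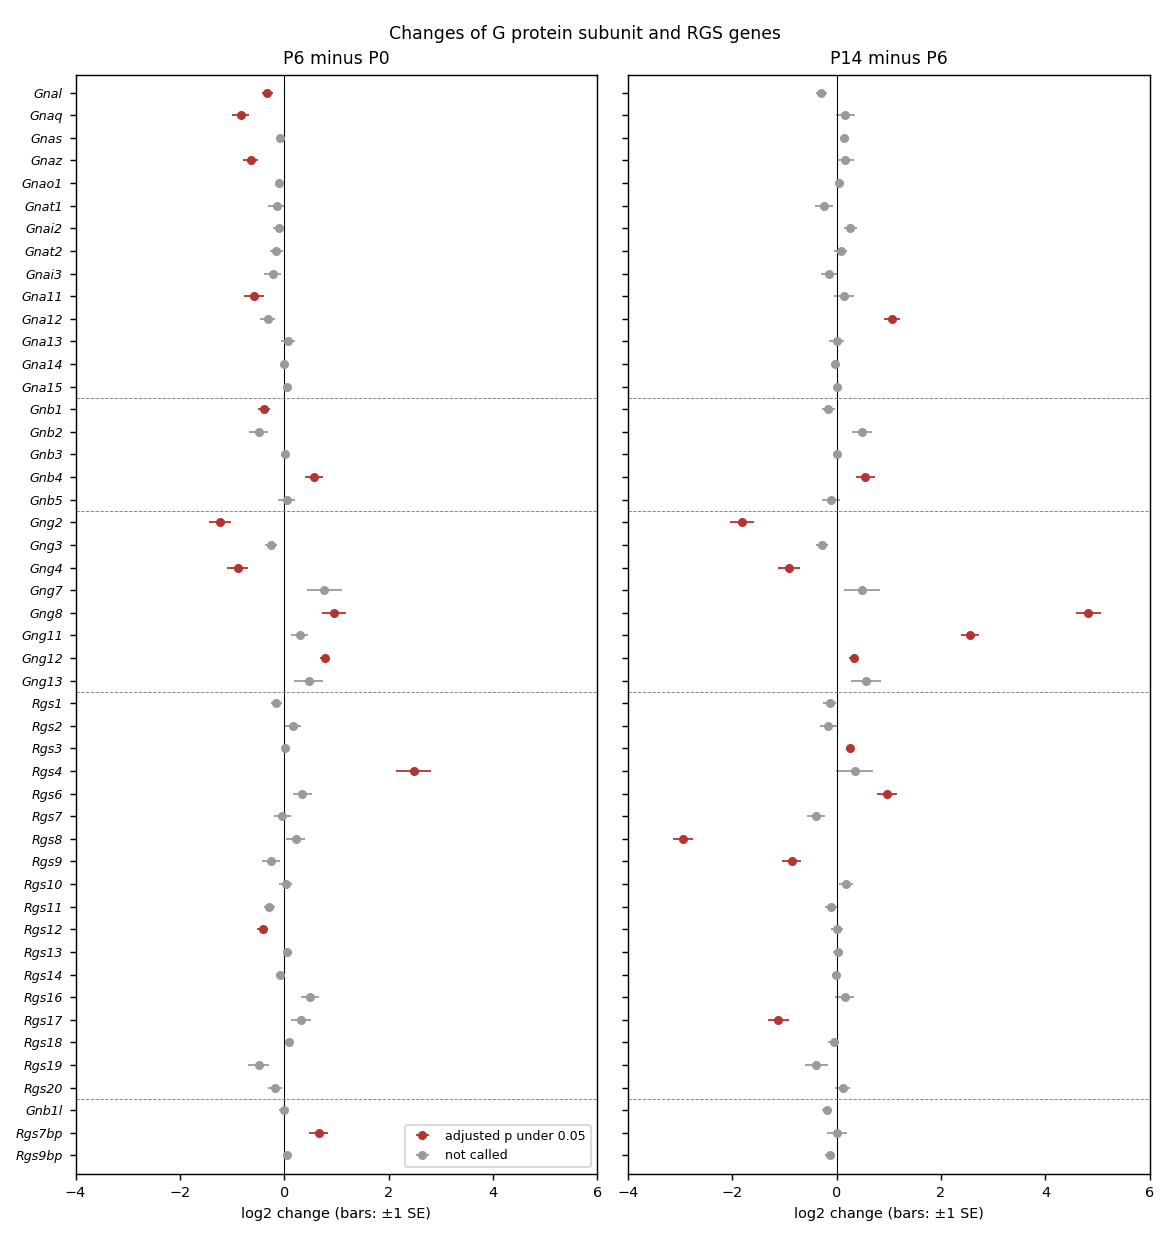
Log2 change of each of the 48 genes, P6 minus P0 on the left and P14 minus P6 on the right, with bars of 1 SE on each side; red points had an adjusted p under 0.05. Gng8 (4.83) and Gng11 (2.56) lie farthest to the right and Rgs8 (-2.94) farthest to the left in the second week, and Rgs4 (2.48) farthest to the right in the first.

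The gamma subunits anchor the beta-gamma dimer in the membrane through a lipid tail, and 8 of their genes were measured. Between P14 and P6, 3 rose (Gng8, Gng11 and Gng12), 2 fell (Gng2 and Gng4) and 3 did not pass the test (Gng3, Gng7 and Gng13). Of all probe sets, 15.7% rose and 5.14% fell between these ages. 

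Gng8 encodes a gamma subunit known in mouse from olfactory and vomeronasal neurons and the habenula. Its log2 expression was 8.90, 9.03, 8.69 and 9.05 in the 4 P14 mice, against 4.11, 4.12, 4.75, 3.85 and 3.62 in the 5 P6 mice. The ages did not overlap, and the lowest P14 mouse lay far above the highest P6 mouse. The change was 4.83 ± 0.25 log2 (SE) with an adjusted p of 1.79e-15 in limma. At P6 the gene lay under the array median in all 5 mice, so no fold is given. A smaller rise had come first: 4.09 ± 0.42 at P6 and 3.13 ± 0.24 at P0 (SD, n = 5 each), a change of 0.96 ± 0.23 log2 (SE) with a limma adjusted p of 0.00388, and every P6 mouse was above every P0 mouse. Already at P3 it was 0.86 higher than at P0 (limma adjusted p = 0.025). That call was lost without P0 litter 3 or 5 or P3 litter 1 or 2, with adjusted p up to 0.101 and the change at 0.68 to 0.81. A fit of only the 2 ages lost it as well (limma adjusted p = 0.0949).

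Gng11, a farnesylated gamma subunit with a wide tissue range, rose in the second week. The 4 P14 mice had 7.39, 7.38, 7.98 and 7.93, against 5.04, 4.88, 5.28, 5.06 and 5.31 in the P6 mice. The ages did not overlap. The rise was 2.56 ± 0.18 log2 (SE), 5.88-fold on this scale with the P6 level near the array median, and had a limma adjusted p of 2.45e-12. Between P6 and P0 the change was 0.29 and did not pass the test (limma adjusted p = 0.295). The 7 age means of Gng8 and Gng11 correlated at 0.99, a description over 7 points that share the arrays. In both genes P14 alone lay far from the other ages, so this value rests largely on 1 point.

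Gng12 lay far above the array median at every age. Its values were 10.45, 10.21, 10.30, 10.33 and 10.31 at P6, against 9.59, 9.27, 9.81, 9.62 and 9.42 at P0. Every P6 mouse was above every P0 mouse. The change was 0.78 ± 0.09 log2 (SE; limma adjusted p = 9.08e-08), and 0.59 of it lay between P3 and P0 (limma adjusted p = 3.9e-05). The further step of 0.32 between P14 and P6 (limma adjusted p = 0.0119) was lost under other scalings, with 0.09 and an adjusted p of 0.534 after quantile normalization and 0.20 with an adjusted p of 0.113 after centring on the median.

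Gng2 and Gng4, gamma subunits widely found in neurons, fell in both weeks. Gng2 was 9.54, 9.71, 10.38, 9.39 and 9.52 at P0, 8.77, 8.41, 8.75, 8.16 and 8.28 at P6, and 6.22, 7.16, 6.54 and 6.72 at P14. No 2 of these 3 ages overlapped. The fall was 1.23 ± 0.21 log2 (SE) between P6 and P0, 2.35-fold with a limma adjusted p of 7.16e-05, and 1.81 ± 0.22 between P14 and P6, 3.52-fold with an adjusted p of 2.14e-07.
Gng4 averaged 9.11 ± 0.68 at P0 and 8.22 ± 0.26 at P6 (SD, n = 5 each) and 7.30 ± 0.12 at P14 (SD, n = 4). The P0 mouse of litter 1, at 8.03, lay within the P6 range of 7.98 to 8.61, and all P14 mice were under all P6 mice. Its fall was 0.89 ± 0.20 log2 (SE) in the first week (limma adjusted p = 0.00198; 0.0707 when the fit held only the 2 ages) and 0.92 ± 0.21 in the second (limma adjusted p = 0.0018). The 7 age means of Gng2 and Gng4 correlated at 0.98, again over 7 points that share the arrays.

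Gng7, which partners Golf in the striatum, Gng13, known from taste cells and retinal bipolar cells, and Gng3, a brain gamma subunit, differed across ages in the F test and in neither main comparison. Gng7 was 7.27, 6.90, 6.89, 5.83 and 7.03 at P6, against 5.82, 5.96, 6.59, 6.79 and 4.91 at P0. The low P6 value of 5.83 is that of litter 4. The change was 0.77 (limma adjusted p = 0.133), and without that mouse it was 1.01 with an adjusted p of 0.0422. Gng13 lay between 3.88 and 4.96 in its age means and Gng3 between 9.41 and 9.94.

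**Figure D2:**
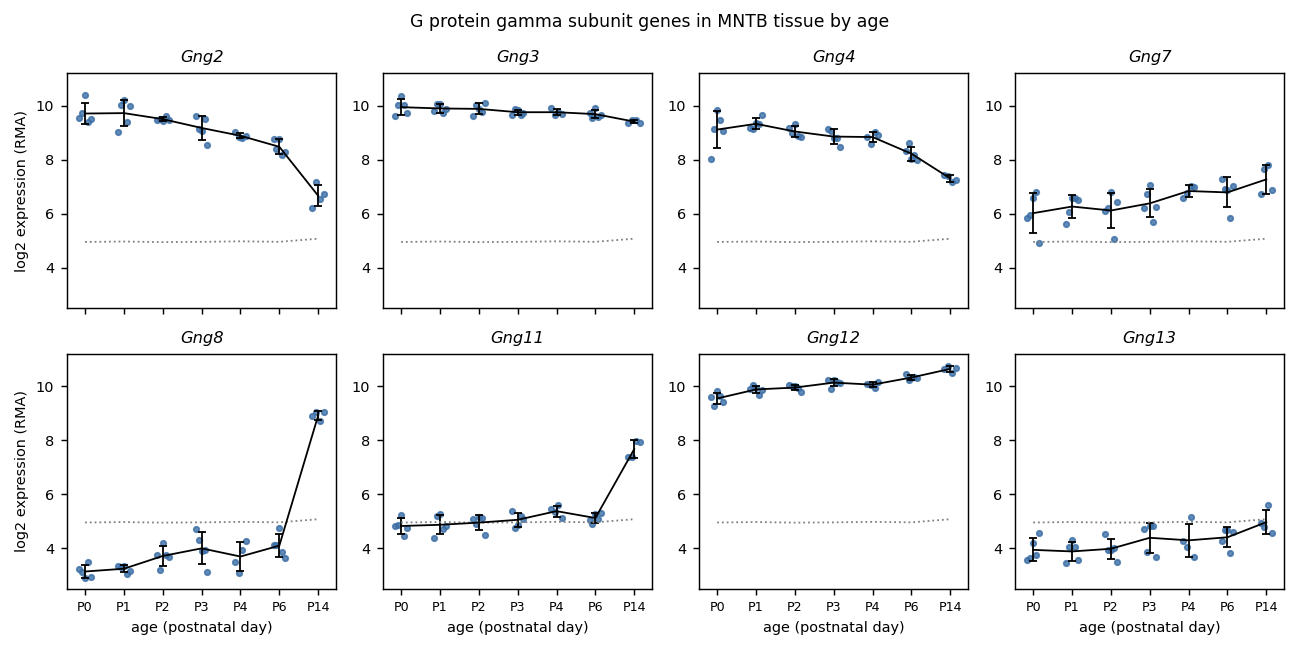
Log2 expression of the 8 gamma subunit genes at the 7 ages, spaced evenly; points are mice, black lines the means with their SD, and the dotted line the mean array median at that age. Gng8 and Gng11 stay near or under the dotted line to P6 and stand at 8.69 to 9.05 and 7.38 to 7.98 at P14, while Gng2 runs down to 6.22 to 7.16.

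Of the 18 RGS genes, 1 rose (Rgs4), 1 fell (Rgs12) and 16 did not pass the test between P6 and P0. Of all probe sets, 6.42% rose and 7.95% fell between these ages. Between P14 and P6, 2 RGS genes rose (Rgs6 and Rgs3), 3 fell (Rgs8, Rgs17 and Rgs9) and 13 did not pass, beside 15.7% of all probe sets that rose and 5.14% that fell.

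Rgs4, a small neuronal RGS of the R4 family that acts on Gi, Go and Gq, had the largest change of the 48 genes in the first week. Its values were 7.60, 7.33, 7.37, 6.65 and 7.77 at P6, against 5.81, 4.94, 4.32, 3.77 and 5.47 at P0. The ages did not overlap, and the P0 mice spread more widely than the P6 mice. The change was 2.48 ± 0.33 log2 (SE) with a limma adjusted p of 1.72e-06. No fold is given, since the P0 mean lay under the array median. The age means ran 4.86 at P0, 4.58 at P1, 5.49 at P2, 5.80 at P3, 6.74 at P4, 7.34 at P6 and 7.68 at P14. Between P6 and P3 the rise was 1.54 ± 0.33 log2 (SE; limma adjusted p = 0.00802), and between P14 and P6 the change was 0.34, with a 95% interval of -0.38 to 1.06 that includes 0.

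Rgs8, another R4 member, known from Purkinje cells and for speeding the gating of GIRK channels, fell in the second week. The P14 mice had 5.35, 5.74, 5.13 and 5.37, against 8.74, 8.62, 8.33, 7.52 and 8.49 in the P6 mice. The lowest P6 mouse, of litter 4, was still above every P14 mouse. The fall was 2.94 ± 0.19 log2 (SE), 7.68-fold on this scale with the P14 level near the array median, and had a limma adjusted p of 4.2e-13. The 6 age means before P14 lay between 8.08 and 8.34.

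Rgs17, of the RZ family that favours Gz and Gi, also fell in the second week. It was 6.99, 6.84, 7.65 and 7.0 at P14, against 8.29, 8.05, 8.29, 8.19 and 8.39 at P6. No P14 mouse reached the P6 range. It fell by 1.12 ± 0.21 log2 (SE; limma adjusted p = 0.000129). The 7 age means of Rgs8 and Rgs17 correlated at 0.98. In both genes P14 alone lay far from the other ages, so this value rests largely on 1 of 7 points.

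The R7 family binds Gnb5 in place of a gamma subunit and is found mainly in neurons. Rgs9, known from striatum and photoreceptors, was 4.97, 4.47, 4.47 and 4.70 at P14, against 5.82, 5.77, 5.19, 5.38 and 5.44 at P6. The ages did not overlap, and the fall was 0.87 ± 0.18 log2 (SE; limma adjusted p = 0.000578). Rgs6 went the other way.
Rgs6 was 5.12, 6.15, 5.46 and 4.88 at P14, against 4.06, 5.02, 4.35, 4.37 and 4.40 at P6, a rise of 0.97 ± 0.19 log2 (SE) with a limma adjusted p of 0.000297. The ages overlapped, since the P6 mouse of litter 2 lay above the lowest P14 mouse. Rgs7 averaged 7.87 ± 0.15 at P14 (SD, n = 4) and 8.26 ± 0.42 at P6 (SD, n = 5). Its change of -0.39 did not pass the test (limma adjusted p = 0.109) and did so without P6 litter 4 (-0.56, adjusted p = 0.00806). Rgs11 lay under the array median at every age, with age means of 4.10 to 4.59, and differed in the F test only.

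Among the rest, Rgs3 rose by 0.25 between P14 and P6 (limma adjusted p = 0.00599), at 4.32 against 4.07 and under the array median at every age. The call was lost after centring on the array median, with 0.13 and an adjusted p of 0.28. A fit of only the 2 ages lost it as well (limma adjusted p = 0.0872). Rgs12, of the R12 family, fell by 0.41 between P6 and P0 (limma adjusted p = 0.00522), with all P6 mice under all P0 mice, also under the array median throughout. Rgs19, which acts on Gi and Gz, differed in the F test, with means of 4.59 at P14 and 5.48 at P0, and in neither main comparison. Rgs16 changed by 0.49 between P6 and P0 (limma adjusted p = 0.0584), and without P6 litter 4 by 0.61 with an adjusted p of 0.0194. It passed as well without P0 litter 3 (0.62, adjusted p = 0.0154), P2 litter 4 (0.49, adjusted p = 0.0397) or P3 litter 3 (0.49, adjusted p = 0.0465). With all mice kept it also passed after quantile normalization (adjusted p = 0.00774) and centring on the median (0.028). Array weights (0.00439) and a filter on dim probe sets (0.0414) called it too. Rgs2, which favours Gq, lay well above the array median, with age means between 9.25 and 9.57. Rgs10 and Rgs20 also lay above the array median and did not pass any of these tests, while Rgs1, Rgs13, Rgs14 and Rgs18 lay under it at every age.

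**Figure D3:**
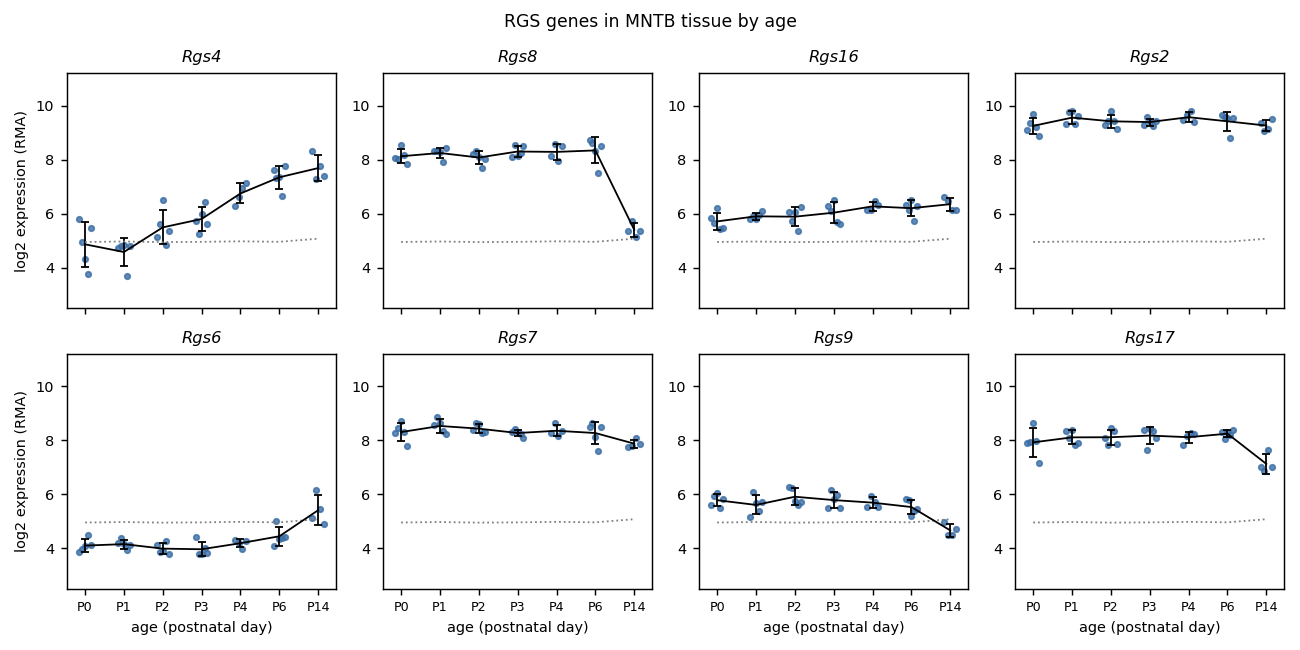
Log2 expression of 8 RGS genes at the 7 ages, spaced evenly; points are mice, black lines the means with their SD, and the dotted line the mean array median. Rgs4 climbs between P1 and P6, Rgs8 drops between P6 and P14 to 5.13 to 5.74, and Rgs2 keeps its age means between 9.25 and 9.57.

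Of the 14 alpha subunit genes, 4 fell and 10 did not pass the test between P6 and P0, when 7.95% of all probe sets fell and 6.42% rose. The calls of Gna11 and Gnal lay near the threshold, and each was lost when any 1 of several mice was left out. Between P14 and P6, 1 rose and 13 did not pass, beside 15.7% of all probe sets that rose and 5.14% that fell. Gnaq, the alpha subunit of Gq, averaged 8.17 ± 0.45 at P6 and 9.0 ± 0.32 at P0 (SD, n = 5 each). It fell by 0.84 ± 0.17 log2 (SE; limma adjusted p = 0.000732), with P6 values of 8.55, 8.50, 8.14, 7.43 and 8.20 against 8.92, 9.19, 9.28, 9.14 and 8.48 at P0. The highest P6 mice, of litters 1 and 2, lay just above the lowest P0 mouse.
Gna11, its close relative, fell by 0.58 ± 0.19 log2 (SE; limma adjusted p = 0.0347), with no overlap between the ages. The call was lost without P0 litter 1, 2 or 4 or P6 litter 3 or 4, with changes of -0.44 to -0.58 and adjusted p of 0.0578 to 0.136.

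Gnaz, the alpha subunit of Gz, fell by 0.64 ± 0.15 log2 (SE; limma adjusted p = 0.00284), at 4.72 ± 0.27 at P6 and 5.37 ± 0.28 at P0 (SD, n = 5 each), close to the array median. At P3 it was already 0.53 lower than at P0 (limma adjusted p = 0.0334). That earlier call was lost without P0 litter 2, 3 or 4 or P3 litter 4 or 5, with changes of -0.41 to -0.52 and adjusted p of 0.0697 to 0.136. A fit of only the 2 ages lost it as well (limma adjusted p = 0.143).
Gnal, the alpha subunit of Golf, fell by 0.32 ± 0.10 log2 between P6 and P0 (SE; limma adjusted p = 0.0323). The call was lost without P0 litter 1, 3 or 4 or P6 litter 1, 3 or 4, with changes of -0.24 to -0.33 and adjusted p of 0.0502 to 0.128. A fit of only the 2 ages lost it as well (limma adjusted p = 0.119). Between P14 and P6 Gnal changed by -0.30 (limma adjusted p = 0.0505), and -0.38 without P6 litter 4 (adjusted p = 0.0115). It passed by less without P0 litter 3 or 5, P1 litter 4 or P2 litter 4, with adjusted p of 0.0233 to 0.0489.

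Gna12, the alpha subunit of G12, changed in the second week. The P14 mice had 5.88, 5.67, 5.88 and 6.09, against 4.89, 4.68, 4.99, 4.49 and 5.04 in the P6 mice. All P14 mice were above all P6 mice, and the rise was 1.06 ± 0.15 log2 (SE), with a limma adjusted p of 3.86e-06. Its partner in class, Gna13, held age means between 8.18 and 8.50.
The remaining alpha genes did not pass either comparison. Gnao1, the alpha subunit of Go and the main one in brain, had age means between 10.37 and 10.61. Gnai2 and Gnai3, of Gi, ranged over 8.30 to 8.55 and 8.39 to 8.86, and Gnas, of Gs, over 6.58 to 6.72. Gnat1, Gnat2, Gna14 and Gna15, known from photoreceptors or from tissues outside the brain, lay under the array median at every age, and of them Gnat1 differed in the F test (3.29 at P14, against 4.10 at P1).

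Of the 5 beta subunit genes, Gnb1 fell by 0.39 ± 0.12 log2 between P6 and P0 (SE; limma adjusted p = 0.0315), with means of 10.18 ± 0.16 at P6 and 10.57 ± 0.09 at P0 (SD, n = 5 each). The ages did not overlap. The call was lost without P0 litter 1, 2, 3 or 5 or P6 litter 3 or 4, with changes of -0.34 to -0.39 and adjusted p of 0.0515 to 0.0925. Gnb4 was the beta gene that rose in both weeks.
Gnb4 was 5.40, 5.53, 5.69, 5.45 and 5.20 at P0, 6.43, 6.34, 6.03, 5.49 and 5.83 at P6, and 6.92, 6.28, 6.67 and 6.40 at P14. Neighbouring ages overlapped, and P14 and P0 did not. The rise was 0.57 ± 0.17 log2 (SE) in the first week (limma adjusted p = 0.0246) and 0.55 ± 0.18 in the second (limma adjusted p = 0.0324). The first call was lost without P0 litter 1 or 5 or P6 litter 1 or 2 (changes of 0.47 to 0.56, adjusted p of 0.0503 to 0.0863). The second was lost without P6 litter 3, 4 or 5 or P14 litter 1 or 3 (changes of 0.41 to 0.55, adjusted p of 0.0516 to 0.15) and under both other scalings (0.31 and 0.43, adjusted p of 0.122 and 0.0561). Fits of only the 2 compared ages lost both calls (limma adjusted p of 0.0648 and 0.0932).
Gnb2 changed by -0.49 and then by 0.48, with limma adjusted p of 0.0618 and 0.0685. Both passed without P6 litter 1 (-0.61, adjusted p = 0.0188, and 0.60, adjusted p = 0.02) or without P2 litter 4 (adjusted p of 0.0409 and 0.0468), and the first without P2 litter 5 (adjusted p = 0.0494). With all mice kept the first also passed after quantile normalization (0.0357), centring on the median (0.0246) and a filter on dim probe sets (0.0439). Gnb5, the partner of the R7 family, had age means of 6.37 to 6.62, and Gnb3, of cones, lay under the array median at every age.

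**Figure D4:**
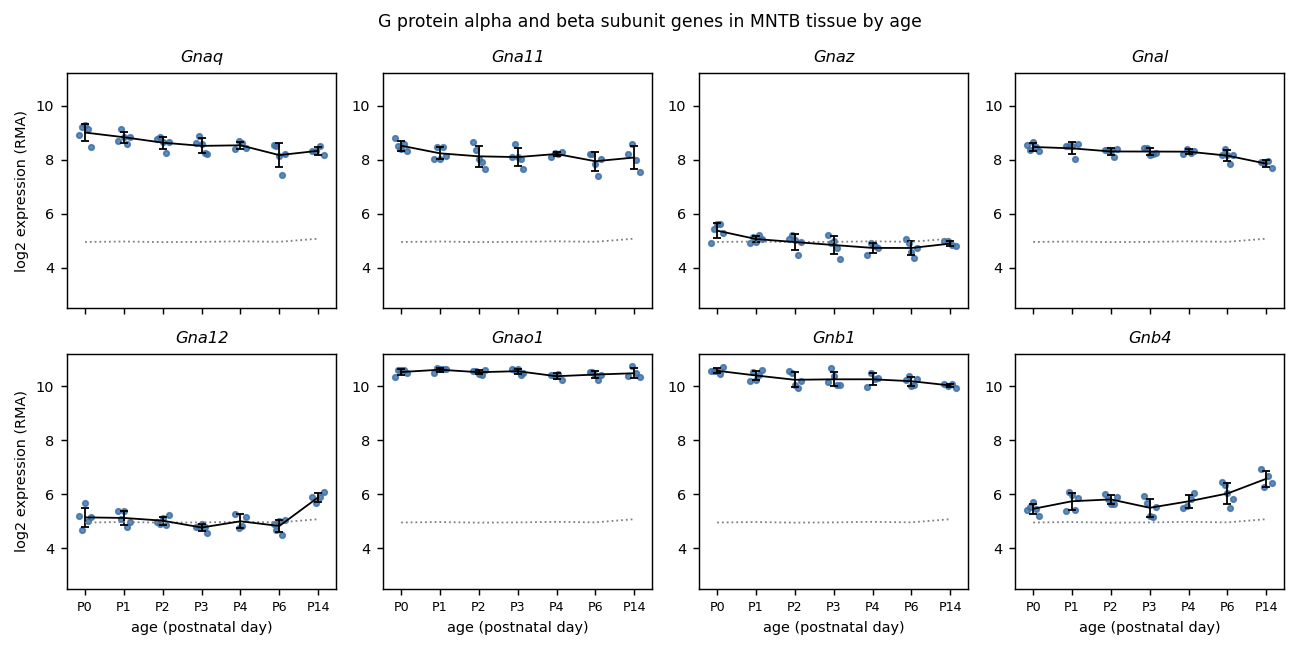
Log2 expression of 6 alpha and 2 beta subunit genes at the 7 ages, spaced evenly; points are mice, black lines the means with their SD, and the dotted line the mean array median. Gna12 stands at 5.67 to 6.09 at P14, above the P6 mice, while Gnao1 keeps its age means between 10.37 and 10.61.

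Of the 3 genes matched by name, Rgs7bp, which anchors R7 family proteins at the membrane, rose by 0.67 ± 0.18 log2 between P6 and P0 (SE; limma adjusted p = 0.0118). It averaged 7.35 ± 0.35 at P6 and 6.68 ± 0.24 at P0 (SD, n = 5 each), and the P6 mouse of litter 4, at 6.82, lay within the P0 range. Rgs9bp and Gnb1l lay under the array median at every age.

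The first week was also divided at P3 and into single steps. Between P3 and P0, 3 of the 48 genes passed the test (Gng12, Gng8 and Gnaz), against 4.93% of all probe sets, and between P6 and P3 it was 1 (Rgs4), against 1.46%. The first count was 5 without P0 litter 1, when Gng4 (-0.53, adjusted p = 0.0496) and Rgs4 (1.18, adjusted p = 0.0401) were added, and 1 without P0 litter 3. Gnaq changed by -0.49 between P3 and P0 (limma adjusted p = 0.098) and passed without P6 litter 4, at -0.49 with an adjusted p of 0.0369. It also passed without P0 litter 5 or without P3 litter 2, at -0.63 and -0.59 with adjusted p of 0.0278 and 0.0476. With all mice kept Gnaq passed between P3 and P0 after quantile normalization (limma adjusted p = 0.00608), centring on the median (0.0313) and with array weights (0.0279). Gna12 passed there without P0 litter 2 (-0.49, adjusted p = 0.0459) and Gnb1 without P3 litter 2 (-0.42, adjusted p = 0.0377). The second was 2 without P0 litter 1 (Gng4, -0.63), P3 litter 5 (Gng2, -0.86) or P6 litter 4 (Gnb4, 0.66). In the 5 single steps P1 against P0, P2 against P1, P3 against P2, P4 against P3 and P6 against P4, limma called 0 of the 48 genes, with 4, 1, 2, 2 and 2 at an unadjusted p under 0.05. Of all probe sets these steps called 0.204%, 0.018%, 0.024%, 0.012% and 0.479%. The smallest adjusted p of a gene in a step was 0.134. In all, 22 of the 48 genes passed neither the F test nor a main comparison, with spans of 0.09 to 0.66 log2, and 15 lay under the array median at every age. The shares of all probe sets for these counts were not taken, so they are not read as traits of the family. With 1 mouse left out 4 changes in the main comparisons not named above also passed: Gna12 and Gng3 between P6 and P0 (limma adjusted p = 0.0408 without P0 litter 2 and 0.0373 without P0 litter 1), and Gnas and Gnb1l between P14 and P6 (0.0347 without P14 litter 2 and 0.0491 without P6 litter 2).

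Genes that act before and after the G protein were examined from lists. Their counts stand beside shares of all probe sets of 6.42% higher and 7.95% lower between P6 and P0, and 15.7% higher and 5.14% lower between P14 and P6. Of 36 measured metabotropic receptors, 4 rose and 7 fell between P6 and P0, and 6 fell between P14 and P6. Cnr1, the CB1 cannabinoid receptor, fell by 1.04, Drd2 by 0.87 and Grm8 by 0.87, and Chrm3 rose by 0.85 in the first week. Grm3, a Gi-coupled glutamate receptor, fell by 2.12 (6.61 at P14 against 8.73 at P6), Htr1a by 1.18, Htr2a by 0.99 and Oprl1 by 0.63 in the second. Of 9 adenylyl cyclases 1 rose (Adcy8, 0.67) and 2 fell (Adcy6 by 0.86 and Adcy5 by 0.76) in the first week, and 2 rose (Adcy9, 0.67, and Adcy4, 0.57) and 1 fell (Adcy2 by 0.44) in the second.
Plcb1, an effector of Gq, fell by 1.25 ± 0.14 log2 (SE; limma adjusted p = 5.01e-08) between P6 and P0, and of the 3 phospholipase C beta genes it alone passed there, as Plcb4 did between P14 and P6 (a fall by 0.44). Of 4 GIRK channel genes Kcnj3 passed, in the second week, when it rose by 1.00 ± 0.32 log2 (SE; limma adjusted p = 0.0236). Of 9 receptor kinases and arrestins Grk6 fell by 0.36 in the first week and Grk3 by 0.74 in the second.
Of 12 other regulators 1 rose and 3 fell in each week. Gpr158, a membrane partner of the R7 family, rose by 1.19 and then fell by 0.67, while Ric8a, a chaperone of alpha subunits, fell by 0.70 and Gpsm1 by 0.58 in the first week. Of 10 protein kinase A and C subunits 4 fell in the first week and 2 rose and 3 fell in the second. Prkar2b, a regulatory subunit of protein kinase A, fell by 1.06 and again by 1.41, Prkce by 1.04 and Prkca by 0.88 in the first week, and Prkcd by 1.18 in the second.

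RefSeq's gene table for GRCm38.p6 held all 48 genes, matched by Entrez number. Several are neighbours there with no other coding gene between them. Rgs8 and Rgs16 adjoin each other on chromosome 1, with a fall of 2.94 for Rgs8 and a change of 0.15 for Rgs16 in the second week (limma adjusted p = 0.657); the difference was not tested. Gnaq and Gna14 adjoin on chromosome 19, Gna11 and Gna15 on chromosome 10, Rgs9 and Gna13 on chromosome 11, and Gnat2 and Gnai3 on chromosome 3, and in no pair did both pass in the same comparison.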

How the data were processed

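Expression was measured on arrays of MNTB tissue from single wild-type mice at 7 ages. Per the labels' protocols, RNA was amplified with a NuGEN Pico kit and labelled with biotin, and such amplification can add variation between arrays. The authors deposited log2 values for 33 arrays of 16686 probe sets. The submitters' processing notes name Partek 6.3, RMA and the build mm9, and their settings were not given in the sources used here. RMA removes background, scales arrays to each other and combines the probes of a set.

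Gene names came from the platform annotation (a single symbol for 14993 probe sets, several for 1019, none for 674). Members and lists were chosen with earlier results of these data known. A mean per age was fitted to all 33 arrays with limma 3.58.1 (R 4.3.3). Two-sided p-values were adjusted by Benjamini-Hochberg over the 16686 probe sets, with calls under 0.05 and no filter on dim probe sets. The text names every member. Those with an F call and a span of at least 1 log2, or a called change of at least 1, are given in full, other called members by change, the rest by range, and up to 4 called genes per pathway list. Litter numbers recur across ages, but nothing says that a number marks the same litter, so p-values measure the spread between mice. The fit was tried on simulated data with independent normal noise for each probe set. Those data held no differences in array quality or between litters, so the trial does not cover such effects. Alternatives were the litter number as a block, 2 scalings, a filter on dim probe sets, array weights, another prior, only the compared ages, a threshold of 0.01, leaving out each mouse and, chosen after seeing the data, leaving out the 3 arrays of lowest weight. The number of arrays limits the precision. Promoter windows came from RefSeq's table for GRCm38.p6, which is another build than mm9.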

Additional observations from a re-analysis of the deposited data

Results flagged for a closer look

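In the 14 genes described in full, 98 groups of mice of the same age were examined for a mouse far from the rest by Dixon's gap criterion at its 95% level, and 3 were found, all in litter 4. With chance alone about 5% of groups pass it. Gng7 was 5.83 in the P6 mouse of litter 4, against 6.89 to 7.27 in the other 4 P6 mice. Rgs4 was 3.68 in the P1 mouse of litter 4, against 4.74 to 4.85 in the other P1 mice. Rgs8 was 7.90 in the same P1 mouse, against 8.27 to 8.43 in the others. These arrays had quality weights of 0.271 (P6) and 0.45 (P1), both among the 3 lowest of the 33, and the part of array quality in these values was not tested.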

How the results depend on the processing

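Of 29 called member changes, 18 held their call under every setting that kept the gene, 11 lost it under at least 1, and 0 changed direction. The filter on dim probe sets left out Gng8, Gnaz, Rgs12, Rgs6 and Rgs3, so it did not try their calls. With the litter number as a replicate block 8 members fell between P14 and P6 (5 without it, with Gnal, Gng3 and Rgs7 added) and 7 rose. The block also gave 28 F calls, and 6 rises and 9 falls between P6 and P0, with Rgs16 and Gnb2 added. Between P3 and P0 it added the fall of Gnaq (limma adjusted p = 0.0203). Same-numbered mice of P6 and P0, and of P14 and P6, correlated at -0.207 to 0.183 in their deviations from the age means. The numbers were therefore not taken to pair mice. Same-numbered mice of P1, P2, P3 and P4 were not examined in this way. Quantile normalization gave 11 falls between P14 and P6, 5 calls between P3 and P0 and 2 between P6 and P3. Centring on the array median gave 4 rises and 9 falls between P14 and P6. Without dim probe sets (18 members left out) 4 rose between P14 and P6 and 1 was called between P3 and P0. With array weights 8 rose between P6 and P0, 8 fell between P14 and P6 and 4 were called between P6 and P3. The falls of Gna11, Gnal and Gnb1 between P6 and P0 were lost under these weights, and that of Rgs11 was added. With only the compared ages 1 was called between P3 and P0, and Gng8 and Gnaz lost their calls there (limma adjusted p of 0.0949 and 0.143). The same setting lost Gnal (0.119), Gnb4 (0.0648) and Gng4 (0.0707) between P6 and P0. Between P14 and P6 it lost Gnb4 (0.0932) and Rgs3 (0.0872). At 0.01, 3 rose and 5 fell between P6 and P0 and 1 was called between P3 and P0. Without the 3 arrays of lowest weight 8 rose between P6 and P0 and 2 were called between P6 and P3. Leaving out 1 mouse gave 20 to 27 F calls, 4 to 7 rises and 5 to 9 falls between P6 and P0, 6 to 8 rises and 5 to 7 falls between P14 and P6, 1 to 5 calls between P3 and P0 and 1 to 2 between P6 and P3. The cause of these shifts was not tested. Each member has 1 probe set, so another choice of probe set could not be run, and no F test was run on only the compared ages. Precision is limited by 4 or 5 mice per age, by the compression of dim probe sets and by scaling, which assumes that most genes do not change.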
